A study of Mus musculus with 5 samples.

Results

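The 10 Krüppel-like factor (KLF) genes described here were the rows of the count table with the symbols Klf2, Klf3, Klf4, Klf5, Klf6, Klf7, Klf9, Klf10, Klf13 and Klf15, which are 10 of 23478 genes in the table. All 10 passed the filter on low counts and were among the 15298 genes tested.

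KLFs are DNA-binding transcription factors named after a Drosophila segmentation gene. They carry zinc fingers at the C-terminal end, which bind CACCC and GC-rich sequences in promoters, and they differ in the N-terminal part, which recruits coactivators or corepressors. Klf3 belongs to the subgroup that binds CtBP corepressors. Klf2, Klf4, Klf5, Klf6 and Klf7 belong to the subgroup that can recruit acetyltransferases, and Klf9, Klf10 and Klf13 to the one that binds the SIN3A corepressor. Klf15 stands outside these subgroups. In the lung KLF2 is known for its part in late fetal maturation and in endothelial responses to flow, and in smooth muscle KLF4 is known to repress contractile genes.

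RNA-Seq was done on GFP-sorted cells from mouse lungs at P6, in 2 control libraries and 3 Igf1r-deleted libraries. Controls were Igf1r Flox/Wildtype, with 1 floxed allele, and Igf1r-deleted mice were Igf1r Flox/Flox, with 2 floxed alleles. Both groups carried Gli1creER and the Rosa-EGFP reporter, and both received 100 µg of tamoxifen per pup on P0 and on P1, so control cells could lose 1 copy of the receptor gene. CreERT2 was expressed from the Gli1 locus, so GFP marks cells in which Gli1-driven Cre was active after tamoxifen, and their progeny. The mice were of mixed background and both sexes. The sex and the number of pups behind each library are not given in the sources used here, and nothing states that the libraries of a group are separate animals, so p-values measure the spread between libraries. With 2 libraries against 3, no exact permutation test can go below p = 0.1.

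“After deletion” below stands for the Igf1r-deleted libraries, in the order of replicates 1, 2 and 3 where 3 values are given. Library totals ran from 35116766 to 37597857 counts. Levels are given in CPM, the reads of a gene relative to the TMM-adjusted library size, and a log2 fold change is Igf1r-deleted against control from edgeR, with its standard error (SE). The targeted gene, Igf1r, stood at 324 CPM for both controls against 139.7, 177 and 194 CPM after deletion, as the labels would have it. Fibroblast markers were by far the most abundant of the cell type markers examined, with 28650 to 41670 CPM summed over 9 genes. Much of this came from Eln, with 9150 to 17350 CPM, and Col3a1, with 6985 to 9797 CPM, so such sums are not shares of cells. The sums were 395.5 to 946 CPM over 12 endothelial genes (without Thbd, which alone had 1337 to 1504 CPM), 432 to 967 CPM over 10 epithelial genes, 191 to 559.5 CPM over 10 hematopoietic genes and 585 to 700.4 CPM over 9 pericyte genes. No marker of these lists was at 0 in every library. In such bulk libraries, fewer cells of a type and less RNA per cell cannot be told apart.

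Promoter sequences show what the KLF genes have in common and where they differ at the DNA level. RefSeq promoters on GRCm38.p6, the build mm10, were matched for 8 of the 10 genes, and Klf5 and Klf10 were not matched. The stretches below run 5′ to 3′ on the strand of the gene, from 250 bases before the start to 30 bases after it. They were chosen for the genes with the largest differences (Klf9 and Klf15), the gene that DESeq2 also called (Klf13), the gene whose direction turned with 1 library (Klf4) and a gene on the higher side (Klf3). Capitals mark the CACCC box, which is bound by KLF and SP proteins and reads GGGTG on the other strand, the E-box CACGTG, which is bound by clock proteins among others, and the FOXO site GTAAACA.
Klf9, chr19:23140976-23141255, plus strand: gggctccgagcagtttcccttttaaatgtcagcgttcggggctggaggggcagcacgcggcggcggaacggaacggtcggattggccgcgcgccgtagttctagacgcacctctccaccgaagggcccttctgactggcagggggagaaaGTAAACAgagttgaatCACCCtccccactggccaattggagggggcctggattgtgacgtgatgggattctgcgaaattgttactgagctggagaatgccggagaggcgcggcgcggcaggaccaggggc
Klf15, chr6:90462326-90462605, plus strand: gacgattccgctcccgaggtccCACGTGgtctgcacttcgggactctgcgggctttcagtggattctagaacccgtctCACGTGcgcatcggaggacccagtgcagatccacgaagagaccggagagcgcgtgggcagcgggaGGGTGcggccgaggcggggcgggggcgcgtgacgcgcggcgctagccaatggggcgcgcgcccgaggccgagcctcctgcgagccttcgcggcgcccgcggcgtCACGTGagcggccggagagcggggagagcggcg
Klf13, chr7:63938886-63939165, minus strand: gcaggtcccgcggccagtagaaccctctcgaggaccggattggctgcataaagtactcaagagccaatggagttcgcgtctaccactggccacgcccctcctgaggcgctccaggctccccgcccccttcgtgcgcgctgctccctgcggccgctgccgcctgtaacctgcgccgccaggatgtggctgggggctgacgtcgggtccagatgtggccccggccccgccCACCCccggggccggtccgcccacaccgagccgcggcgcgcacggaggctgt
Klf4, chr4:55532446-55532725, minus strand: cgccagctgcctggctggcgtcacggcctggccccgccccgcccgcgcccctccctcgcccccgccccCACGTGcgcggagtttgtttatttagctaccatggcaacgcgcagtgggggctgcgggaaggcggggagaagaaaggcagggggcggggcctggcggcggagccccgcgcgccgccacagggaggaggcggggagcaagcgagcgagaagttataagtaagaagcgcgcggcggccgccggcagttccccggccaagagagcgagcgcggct
Klf3, chr5:64803271-64803550, plus strand: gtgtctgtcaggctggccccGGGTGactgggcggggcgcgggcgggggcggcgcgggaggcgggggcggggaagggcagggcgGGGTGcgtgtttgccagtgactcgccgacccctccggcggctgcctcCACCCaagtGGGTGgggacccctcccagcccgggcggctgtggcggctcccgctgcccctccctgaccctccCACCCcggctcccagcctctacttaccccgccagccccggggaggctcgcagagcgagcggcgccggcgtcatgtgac

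Both strands were searched from 250 bases before to 50 bases after each start, and no motif contains another. The CACCC box was found in 6 of the 8 KLF promoters and in 57.5% of 32851 mouse promoters of the same length. Klf3 had 5 such boxes and Klf7 had 3, and Klf2, Klf9, Klf13 and Klf15 had 1 each. The E-box was found in 3 of the 8 and in 7.15% of all promoters. Klf15 had 3 E-boxes, with their first bases 228, 172 and 3 bases before the start, and Klf4 and Klf6 had 1 each. Klf9 alone of the 8 had the FOXO site, 100 bases before its start, which 3.65% of all promoters hold. None of the 8 windows held the AP-1 site TGACTCA, the CREB site TGACGTCA, the glucocorticoid receptor core AGAACA or a CArG box, which were in 5.2%, 1.79%, 19.0% and 1.63% of all promoters. The 8 windows were 58.3% to 76.7% GC, against a median of 52.7% over all promoters. The shares of all promoters were not matched for GC, so the contrasts with them may reflect base composition. A match is a description of these letters and not a bound site.

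**Figure D1:**
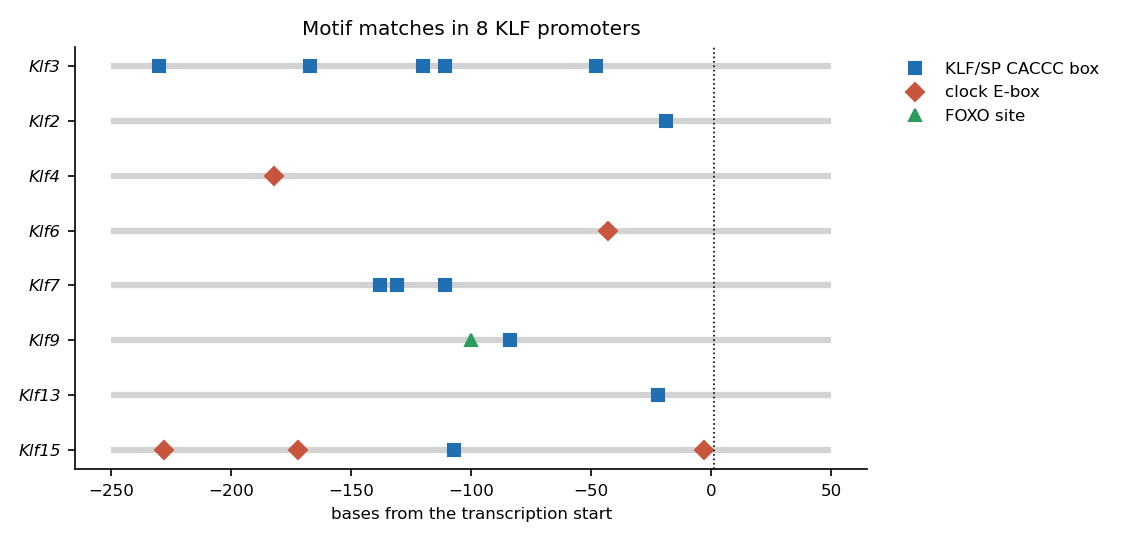
Motif matches in the 8 KLF promoters with a RefSeq entry, by the position of the first base of each match in bases from the transcription start (dotted line). Each grey line is 1 promoter window. Klf15 has 3 E-box matches, Klf3 has 5 CACCC boxes, and the FOXO match lies in Klf9.

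The first question was how the levels of the 10 KLF genes compared between the genotypes. The 10 were chosen with earlier results of these data known, so their counts are not independent evidence of a shift of the family. Of the 10, 8 were lower after deletion and 2, Klf3 and Klf7, were higher. The median of their log2 fold changes was −0.43 against 0.015 over all genes tested. Of 13 other KLF and SP genes tested, 6 were lower and 7 higher, with a median of 0.032. Among the 10, the differences were largest for Klf15 (log2 fold change −1.49) and Klf9 (−1.29), both known as genes that glucocorticoids induce. None of the 10 passed the edgeR test after Benjamini-Hochberg adjustment, in which 0% of the 15298 genes had an adjusted p-value under 0.05. Before adjustment, 5 KLF genes were lower with a p-value under 0.05 (Klf5, Klf9, Klf10, Klf13 and Klf15), beside 1032 or 6.75% of all genes, and none was higher, beside 865 or 5.65%. All Igf1r-deleted libraries lay below both controls for 6 of the genes, beside 14.9% of all genes, and above both for 2, beside 16.0%. Klf4 and Klf6 overlapped. DESeq2 called 2 of the 10, Klf9 and Klf13, both lower, where it called 1.16% of the 12328 genes with an adjusted p-value lower and 0.454% higher.

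The 2 controls were not alike. Control replicate 1 was farther than control replicate 2 from the mean of the Igf1r-deleted libraries for 10 of 10 KLF genes, as it was for 10201 of the 15298 genes tested. It lay above control replicate 2 for 8 of the 10. Without control replicate 1 the median log2 fold change of the KLF genes was −0.30, and 2 of them, Klf9 and Klf13, both lower, had an unadjusted p-value under 0.05, beside 1.61% of 15695 genes lower and 1.15% higher in that fit. Without Igf1r-deleted replicate 1, 7 KLF genes were lower and 2 higher with an unadjusted p-value under 0.05, beside 11.6% of 15138 genes lower and 9.40% higher. With control replicate 2 left out in its place, Klf9 and Klf15 passed the adjusted edgeR test, where 0.273% of 15733 genes were called lower and 0.0127% higher.

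**Figure D2:**
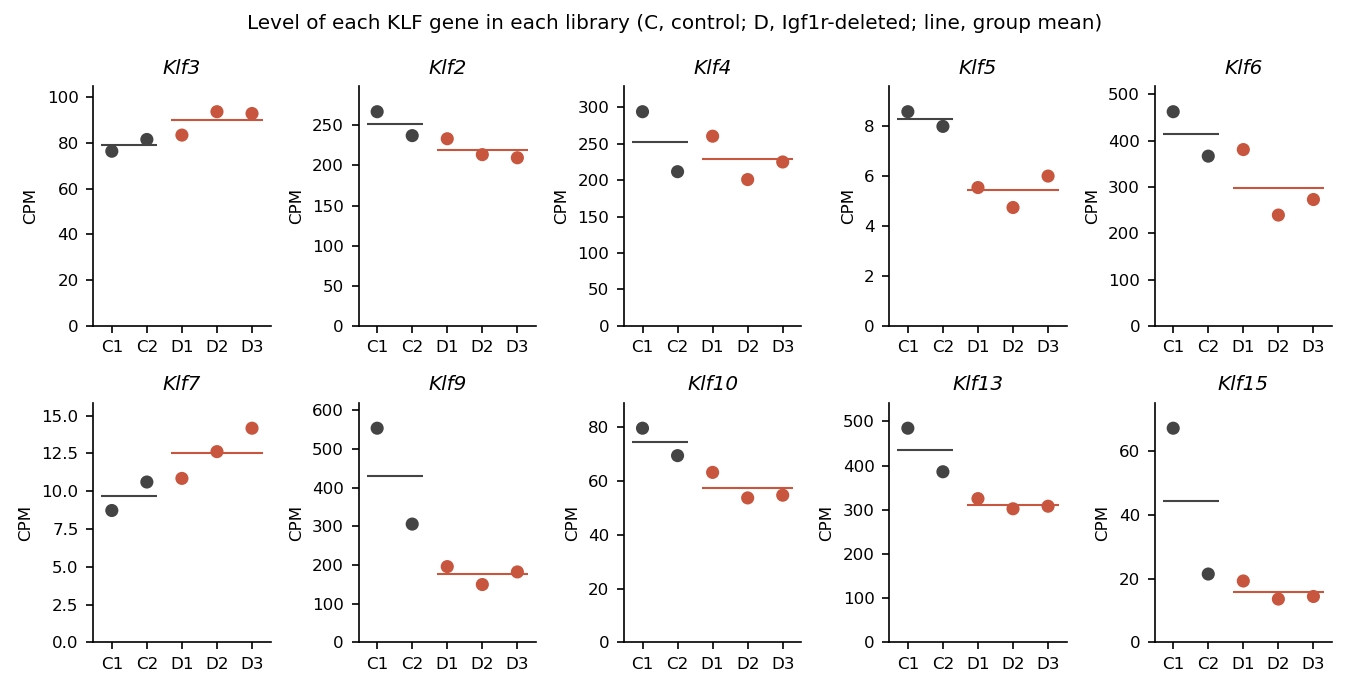
Level of each KLF gene in CPM (vertical axes from 0) in the 2 control libraries (C1, C2, grey) and the 3 Igf1r-deleted libraries (D1 to D3, red), with a line at each group mean. The 3 red points lie below both grey ones for 6 genes and above both for Klf3 and Klf7, and C1 stands far above C2 for Klf9 and Klf15.

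Klf9 encodes a repressor of the SIN3A-binding subgroup that is induced by glucocorticoid and thyroid hormones. The gene lies on mm10 at chr19:23141226-23168134 on the plus strand. Control replicates 1 and 2 had 554 and 306 CPM, and replicates 1, 2 and 3 after deletion had 196, 149.7 and 182 CPM. The 3 Igf1r-deleted libraries lay close together and below both controls, which were 1.81-fold apart. The means were 430.1 ± 175 CPM (SD, n = 2) and 176 ± 23.8 CPM (SD, n = 3), so the Igf1r-deleted level was 40.9% of the control level. Its log2 fold change of −1.29 (SE 0.24) had an adjusted p = 0.354 with edgeR and 0.000139 with DESeq2, and other ways of processing gave adjusted p-values from that value to 0.365. Of all genes tested, 1.45% had a lower log2 fold change and 0.17% a smaller p-value. Without control replicate 1 the log2 fold change was −0.80, and without control replicate 2 it was −1.67.

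Klf13 encodes another SIN3A-binding factor, known from the RANTES promoter in T cells and from the heart. It lies at chr7:63886351-63938915 on the minus strand. Its levels were 484 and 386 CPM in the controls, against 325, 302 and 308 CPM after deletion. The 3 Igf1r-deleted values lay close together, and both controls stood clearly above them. The log2 fold change was −0.48 (SE 0.12, adjusted p = 0.354 with edgeR and 0.0325 with DESeq2), and the adjusted p-value of the alternatives ran from the latter value to 0.365. Without control replicate 1 the change was −0.31.

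Klf10, known as TIEG1, is an early gene of TGF-β signaling that encodes a repressor of Smad7. It lies at chr15:38291463-38300706 on the minus strand. It had 79.7 and 69.5 CPM in the controls, against 63.2, 53.8 and 54.8 CPM after deletion, again without overlap. Its log2 fold change was −0.38 (SE 0.12, adjusted p = 0.354 with edgeR), and with 1 library left out in turn it stayed between −0.49 and −0.28. Klf9, Klf13 and Klf10 were thus each lower without overlap of the genotypes.

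Klf15 encodes a factor of amino acid and glucose metabolism that is induced by glucocorticoids and cycles with the clock. It lies at chr6:90462576-90475238 on the plus strand. The gene had 67.1 CPM in control replicate 1, 21.4 CPM in control replicate 2, and 19.2, 13.6 and 14.4 CPM after deletion. Control replicate 2 thus lay much closer to the Igf1r-deleted libraries than to control replicate 1, from which it differed 3.13-fold. Only 1.75% of all genes differed more between the controls. The means were 44.3 ± 32.3 CPM (SD, n = 2) and 15.7 ± 3.06 CPM (SD, n = 3), with a log2 fold change of −1.49 (SE 0.41, adjusted p = 0.354 with edgeR and 0.198 with DESeq2). Leaving out control replicate 1 gave −0.45, and leaving out control replicate 2 gave −2.10, where the adjusted p = 0.0196 from edgeR passed the threshold. Other ways of processing gave Klf15 adjusted p-values from 0.0490 to 0.377.

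**Figure D3:**
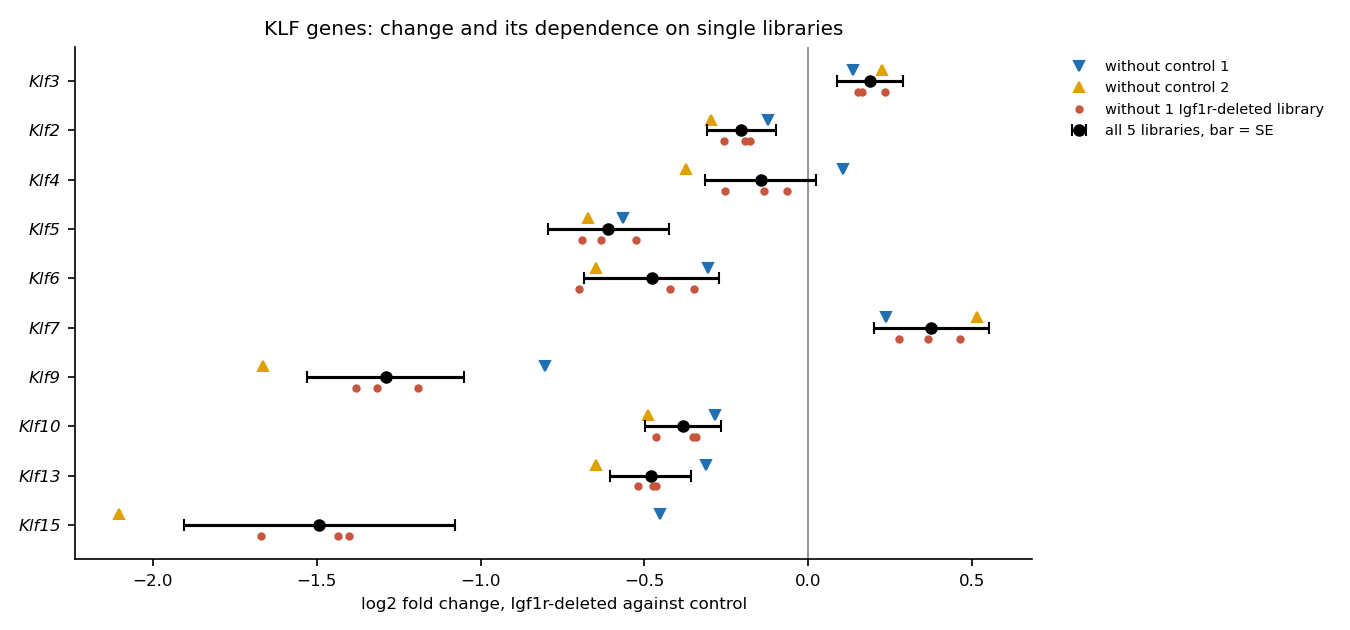
Log2 fold change of each KLF gene, Igf1r-deleted against control. Black points and bars are the edgeR estimate and its SE over all 5 libraries, blue and yellow triangles are the estimates without control replicate 1 or 2, and red dots those without 1 Igf1r-deleted library. The triangles of Klf15 lie at −0.45 and −2.10 and those of Klf9 at −0.80 and −1.67, and Klf4 crosses 0 without control replicate 1.

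In the activating subgroup no gene passed the adjusted threshold with either edgeR or DESeq2. Klf2, the flow-responsive factor of endothelium, lies at chr8:72319033-72321656 on the plus strand. It had 267 and 237 CPM in the controls, against 233, 214 and 209.6 CPM after deletion. The genotypes did not overlap, though control replicate 2 and Igf1r-deleted replicate 1 were nearly equal. Its log2 fold change was −0.20 (SE 0.11, adjusted p = 0.459 with edgeR) and −0.12 without control replicate 1. The 13 endothelial markers and KLF2 targets, among them Cdh5 (VE-cadherin) with 144 to 152 CPM in the controls, against 58.4 to 206 CPM after deletion, had a median log2 fold change of 0.010, or −0.016 without control replicate 1. None of the 13 had an unadjusted p-value under 0.05. Thbd, which encodes thrombomodulin and is a known KLF2 target, had 1337 and 1412 CPM in the controls, against 1408 to 1504 CPM after deletion.

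Klf4, a pluripotency factor that represses smooth muscle genes, lies at chr4:55527143-55532466 on the minus strand. It had 294 and 212 CPM in the controls, against 260.3, 201 and 225 CPM after deletion. The second control lay within the range of the Igf1r-deleted libraries. The log2 fold change was −0.14 (SE 0.17, adjusted p = 0.738 with edgeR), and it turned to 0.11 without control replicate 1 and was −0.37 without control replicate 2.

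Klf6, which is induced early after injury and growth stimuli, lies at chr13:5861482-5870394 on the plus strand. It had 463 and 367 CPM in the controls, against 381, 239.5 and 273 CPM after deletion. Igf1r-deleted replicate 1 lay between the controls. For Klf6 the log2 fold change was −0.48 (SE 0.21, adjusted p = 0.401 with edgeR). Leaving out control replicate 1 gave −0.31, and leaving out the first Igf1r-deleted library gave −0.70.

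Klf5, a factor of proliferating epithelium and smooth muscle, lies at chr14:99298691-99315036 on the plus strand. It was scarce, with 8.55 and 7.97 CPM in the controls, against 5.53, 4.73 and 5.98 CPM after deletion. The controls were close to each other, and all Igf1r-deleted values were below them. Across the genotypes the log2 fold change was −0.61 (SE 0.18, adjusted p = 0.354 with edgeR) and stayed between −0.69 and −0.53 with 1 library left out in turn. The 10 epithelial markers summed to 907 and 872 CPM in the controls, against 645, 967 and 432 CPM after deletion, and 8 of them were lower (7 with library totals in place of TMM). Their median log2 fold change was −0.33, or −0.20 without control replicate 1, and none had an unadjusted p-value under 0.05. Igf1r-deleted replicate 2, with the highest epithelial sum, had the lowest Klf5. The epithelial part in the level of Klf5 was not tested.

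Klf7, known from neuronal development, lies at chr1:64029447-64122282 on the minus strand. It was as scarce as Klf5, with 8.73 and 10.6 CPM in the controls, against 10.9, 12.6 and 14.2 CPM after deletion. The gap between the second control and Igf1r-deleted replicate 1 was small. Between the genotypes the log2 fold change was 0.38 (SE 0.18, adjusted p = 0.422 with edgeR) and 0.24 without control replicate 1. Of its exon bases, 39.4% overlap genes on the opposite strand, and whether the counting used strand is not given in the sources used here, so this level is uncertain.

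Klf3, the CtBP-binding repressor of the set, lies at chr5:64803388-64832901 on the plus strand. It had 76.3 and 81.4 CPM in the controls, against 83.3, 93.5 and 92.8 CPM after deletion. The Igf1r-deleted values exceeded both controls by a narrow margin. The estimate was a log2 fold change of 0.19 (SE 0.10, adjusted p = 0.466 with edgeR), and it kept its sign with each library left out, between 0.14 and 0.23. An antisense gene overlaps 3.59% of its exon bases.

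Levels of different genes were compared per kb of exon. On this scale Klf2 ranked first of the 10 in every library, with 145 and 128 CPM per kb in the controls and 126, 116 and 113.5 CPM per kb after deletion. Klf5 and Klf7 were the lowest in every library, at 0.909 to 1.74 CPM per kb. Klf9 ranked 2 and 4 in control replicates 1 and 2 and ranked 5 in each Igf1r-deleted library. Its share of the summed KLF level was 19.9% and 14.8% in the controls and 9.83%, 9.26% and 10.6% in the Igf1r-deleted libraries. The share of Klf4 was 16.7% and 16.1% in the controls and 20.6%, 19.6% and 20.6% after deletion. Its mean level was 82.9 CPM per kb in the controls and 75.0 CPM per kb after deletion, so only its share was larger. The sum over the 10 genes was 578 and 430.5 CPM per kb in the controls and 414, 336 and 358 CPM per kb after deletion, so control replicate 2 and Igf1r-deleted replicate 1 were close.

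**Figure D4:**
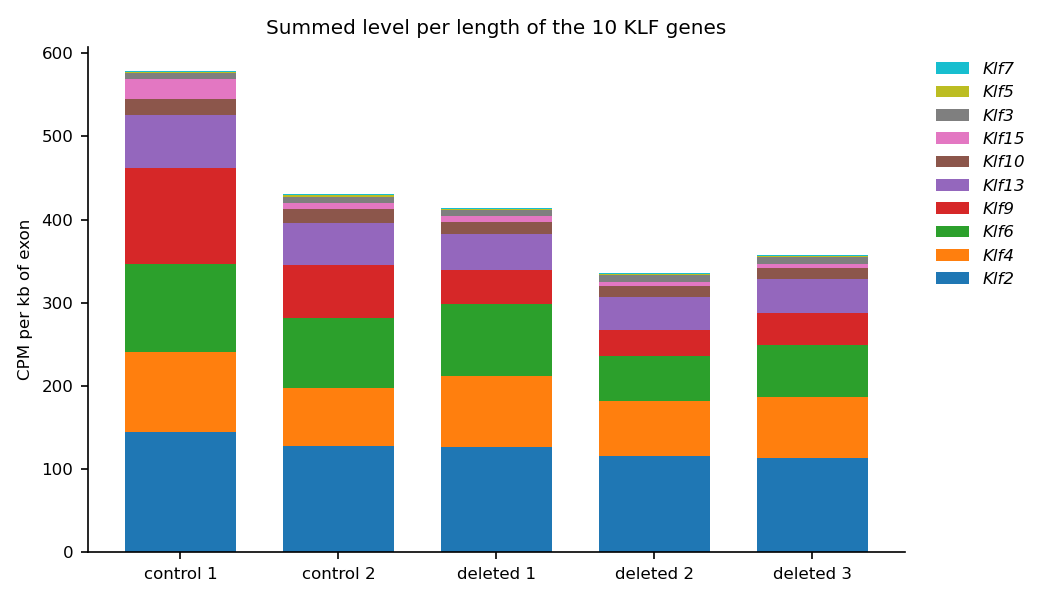
Summed level of the 10 KLF genes in each library, in CPM per kb of exon, with 1 colour for each gene. The sum is 578 in control replicate 1, 430.5 in control replicate 2 and 336 to 414 in the Igf1r-deleted libraries, and the Klf9 segment narrows from 115 and 63.6 to between 31.1 and 40.7 CPM per kb.

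The rest of the family was read from the same fit. Of 16 other KLF and SP genes, 13 were tested, with a median log2 fold change of 0.032, or −0.035 without control replicate 1, and none had an unadjusted p-value under 0.05. Sp1, the ubiquitous activator that binds GC boxes, had 198 to 216 CPM in all 5 libraries. Klf11, the closest relative of Klf10, had 126 and 141 CPM in the controls, against 118, 140.0 and 156 CPM after deletion, overlapping in level (log2 fold change 0.048, SE 0.14). Of the 13, 2 were lower without overlap of the genotypes (Sp4, log2 fold change −0.31, and the scarce Klf14, at under 1 CPM), beside 14.9% of all genes, and 1 was higher (Sp2, 0.23), beside 16.0%, so both counts were near the background. Klf17 was at 0 in every library. Among 11 KLF cofactors and regulators of turnover, 1 was higher with an unadjusted p-value under 0.05, beside 5.65% of all genes, so this count too was near the background. It was Fbxw7, a ubiquitin ligase subunit that targets KLF proteins, with 15.1 and 17.2 CPM in the controls, against 18.1, 21.6 and 26.1 CPM after deletion (log2 fold change 0.44, SE 0.17, adjusted p = 0.384 with edgeR). Ctbp1, the corepressor bound by KLF3, had 262 and 269 CPM in the controls, against 281 to 294 CPM after deletion.

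Gene groups that KLF factors are known to share inputs or targets with were described for comparison, each by its count and its median. The lists were chosen with earlier results of these data known, so none is independent evidence of its direction. No gene of any group passed the adjusted edgeR test. DESeq2 called 7 of the glucocorticoid targets, 7 of the immediate early genes, 3 of the FOXO list and 2 of the clock list, all lower. It also called 1 hematopoietic marker (Cd79a) and 1 fibroblast marker (Tcf21) lower, and 1 of the smooth muscle list, Acta2, higher. Of the 12328 genes with a DESeq2 adjusted p-value, 1.16% were called lower and 0.454% higher. All 14 glucocorticoid targets were lower, with a median log2 fold change of −1.67, and 13 had an unadjusted p-value under 0.05, beside 6.75% of all genes. Of the 14, 11 were lower without overlap of the genotypes, beside 14.9% of all genes, and the rest overlapped. The sum of the 14 was 4496 CPM in control replicate 1, 2377 CPM in control replicate 2 and 1197 to 1704 CPM after deletion. Klf9 and Klf15 stood in the same order, highest in control replicate 1 and next in control replicate 2. Klf2, Klf5, Klf10 and Klf13 did so too, as did the sums of the FOXO list and of the immediate early genes. The order was thus not particular to Klf9, Klf15 or the glucocorticoid targets. Zbtb16, which encodes PLZF, had 231 and 80.7 CPM in the controls, against 37.0, 6.14 and 5.04 CPM after deletion. Without control replicate 1 the median of the group was −0.72. Whether the level of Klf9 and Klf15 followed that of glucocorticoids was not tested.

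Of 11 FOXO factors and targets, all were lower with TMM, with a median of −0.43. Of these, 7 had an unadjusted p-value under 0.05, beside 6.75% of all genes. Txnip, which encodes an inhibitor of thioredoxin and of glucose uptake, had 1322 and 707 CPM in the controls, against 375 to 441 CPM after deletion. With library totals 9 of the 11 were lower, and without control replicate 1 the median was −0.15. Like the others, this list was chosen with earlier results known, so it is not independent evidence of its direction. Of 20 immediate early genes, to which Klf6 and Klf10 are akin in their induction, all were lower with TMM, with a median of −0.48. Of these, 12 had an unadjusted p-value under 0.05, beside the same 6.75% of all genes. With library totals 19 of the 20 were lower, and without control replicate 1 the median was −0.31. Fosl1 had the lowest log2 fold change of these genes, −1.55, at under 2 CPM, and Nr4a1, a nuclear receptor, the highest, −0.071. Tissue digestion can induce immediate early genes, and its part in the levels of Klf6 and Klf10 was not tested.

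The smooth muscle genes and SRF cofactors went the other way, with 9 of 10 higher (all 10 with library totals) and a median log2 fold change of 0.38. Of these 10, 5 had an unadjusted p-value under 0.05, all of them higher, beside 5.65% of all genes. Acta2, which encodes αSMA and is repressed by KLF4 in other cells, had 407 and 655 CPM in the controls, against 764, 1067 and 907 CPM after deletion. The Klf4 levels of the genotypes overlapped, and a part of KLF4 in the level of Acta2 was not tested. The median of this list was 0.21 without control replicate 1. The 17 circadian clock genes count Per1 in common with the glucocorticoid targets. Of these 17, 3 were lower with an unadjusted p-value under 0.05, beside 6.75% of all genes. Their median was −0.042, or 0.033 with library totals. Per2 was the lowest of them at −0.76, and Per3 the highest at 0.56. The 7 TGF-β response genes, with which Klf10 is classed, had a median of −0.10, or −0.052 without control replicate 1 and −0.032 with library totals, and none had an unadjusted p-value under 0.05. Of 4 metabolic genes that KLF15 is known to activate, Bcat2, of branched-chain amino acid breakdown, had 19.7 to 21.7 CPM in all libraries. Gpt, alanine aminotransferase, was higher at an unadjusted p-value under 0.05, beside 5.65% of all genes. It had 1.01 and 1.09 CPM in the controls, against 1.45, 1.94 and 2.45 CPM after deletion. Tdo2, also scarce, went the other way, with a log2 fold change of −1.045. It had 1.24 and 0.873 CPM in the controls, against 0.425, 0.654 and 0.445 CPM after deletion. Of the 4, 2 were lower and 2 higher. The median of the 4 was 0.10, or 0.22 without control replicate 1 and 0.18 with library totals.

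**Figure D5:**
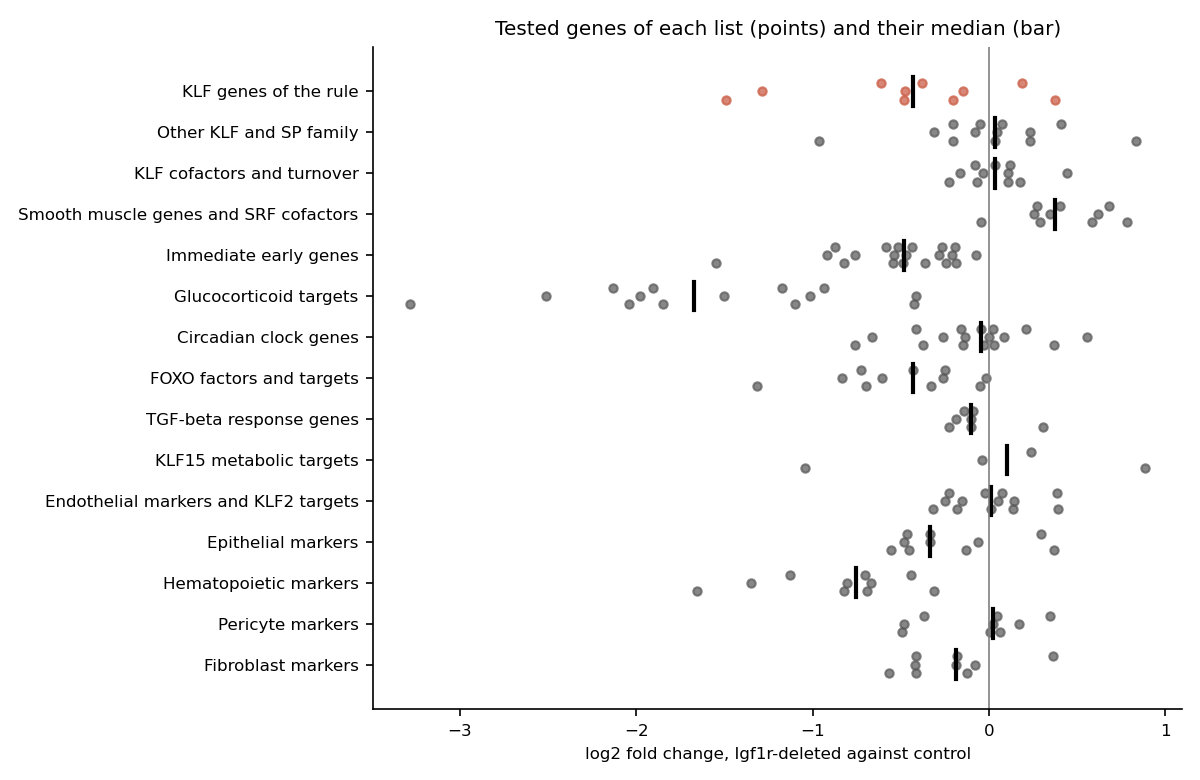
Log2 fold change, Igf1r-deleted against control, of every tested gene (points) of the 10 KLF genes and of each comparison list, with the median of each list as a black bar. Glucocorticoid targets lie lowest (median −1.67), hematopoietic markers next (−0.75), the KLF genes, FOXO genes and immediate early genes lie at −0.43 to −0.48, and smooth muscle genes highest (0.38).

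Among the other cell types, all 10 hematopoietic markers were lower under every scaling tried. With TMM, 3 of them had an unadjusted p-value under 0.05, beside 6.75% of all genes. The median of the 10 was −0.75, or −0.42 without control replicate 1. Their sum was 559.5 and 372 CPM in the controls, against 444, 314 and 191 CPM after deletion. Most of each sum was Lyz2, with 379 and 266 CPM in the controls, against 142 to 317 CPM after deletion. Klf2, Klf4, Klf6 and Klf13 are also active in blood cells. The libraries were sorted for GFP, and the part of any remaining blood cells in these levels was not tested. Of 9 fibroblast markers, 8 were lower, and 1 had an unadjusted p-value under 0.05, beside 6.75% of all genes lower. It was Tcf21, a mesenchymal factor of the lung, which was lower (log2 fold change −0.57, adjusted p = 0.354 with edgeR and 0.0492 with DESeq2). The median of the 9 was −0.19. Of 9 pericyte markers, 2 were lower with an unadjusted p-value under 0.05, beside 6.75% of all genes. The pericyte median was 0.024, which turned to −0.17 without control replicate 1.

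For 3 of the KLF genes the genes with the most similar pattern over the 5 libraries were looked up among 9100 genes with a mean of at least 10 CPM, by Pearson's r of log2 CPM as a description. The 5 points share their genotypes, and control replicate 1 stands apart in them. Klf9 was most like Irs2, the insulin receptor substrate, with r = 0.999, followed by Polr1c and Btg1. Irs2 had 585 and 387 CPM in the controls, against 297, 245 and 276 CPM after deletion. Klf15 was most like Slc1a5, a glutamine transporter, with r = 0.999, followed by Tgfbr3 and Acot1. Slc1a5 had 115 and 76.2 CPM in the controls, against 72.5, 65.3 and 65.7 CPM after deletion, a much narrower range than that of Klf15. Klf4 was most like Esyt2, a membrane tether of the endoplasmic reticulum, with r = 0.996, followed by Dnajc1 and Adrb3. Esyt2 also overlapped between the genotypes, with 213 and 169 CPM in the controls, against 196, 159 and 173.5 CPM after deletion.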

How the data were processed

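According to their methods and processing notes, the authors ran Trim Galore on the reads, mapped to mm10 using Bowtie2 and counted reads over genes with GenomicAlignments. The deposited values are raw counts per gene, with 1 column per library. Annotation version and strand setting are not given in the sources used here.

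Here the counts were tested in edgeR 4.0.16, under R 4.3.3 with limma 3.58.1, by the two-sided quasi-likelihood F test. TMM factors and filterByExpr (minimum count 10) were used, genotype was the only term, and p-values were adjusted by Benjamini and Hochberg's method over 15298 genes. Log2 CPM for similarity had a prior count of 2. The scripts were tested on simulated data. Totals were 35116766 to 37597857 counts, and counting error is largest for scarce genes such as Klf14, with 8 to 33 counts. Gene positions and exon lengths were those of GENCODE M21.

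All 10 KLF genes were named, with the other KLF and SP genes. Of each further list the genes with the lowest and highest log2 fold change and the 2 most abundant could be named, and for Klf4, Klf9 and Klf15 the 3 most similar genes. The members and the lists were chosen with earlier results of these data known.

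The alternatives tried were DESeq2 1.42.0 (Wald test), limma voom, robust empirical Bayes, 3 other scalings (DESeq2's size factors, upper-quartile factors, library totals), filters of at least 1 count in any library or 10 in every library, the replicate number as a block, and leaving out each library.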

Additional observations from a re-analysis of the deposited data

How the results depend on the processing

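The 9 alternatives of the processing left the sign of every KLF gene as it was, and each left the same 8 KLF genes without overlap. Robust empirical Bayes, limma voom and the replicate block used the CPM of the main fit, so with them the overlap could not change. Robust empirical Bayes also kept the log2 fold changes of the main fit. In the main fit, 14.9% of all genes were lower and 16.0% higher without overlap. The number of KLF genes with an adjusted p-value under 0.05 was 0 in edgeR and 2 with DESeq2 (Klf9 and Klf13), which called 199 of 12328 genes in all. With the replicate block it was also 2 (Klf9, adjusted p = 0.0108, and Klf15, adjusted p = 0.0490, from edgeR), and 136 of 15298 genes were called, which is 0.889%. Same-numbered libraries deviated together with correlations of 0.208 and 0.122 for replicates 1 and 2, but only 2 pairs exist and the labels tie no number to an animal or batch, so the samples share only a number. With each library left out in turn, 0 to 2 KLF genes passed the adjusted edgeR test, the 2 being Klf9 and Klf15 without control replicate 2, where 45 genes were called in all. Without Igf1r-deleted replicate 1 or 2, 5 and 4 genes were called, none of them KLF genes. The number with an unadjusted p-value under 0.05 ran from 2 without control replicate 1 to 9 without Igf1r-deleted replicate 1. The log2 fold change of Klf4 ran from −0.37 to 0.11. The causes of these differences were not tested. A single control remains when the other is left out, and it is assumed to vary like the Igf1r-deleted libraries. Library totals in place of TMM moved the median of all genes to 0.088, from 0.015.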
